A study of Homo sapiens with 15 samples.

Results

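The 34 genes described here encode ATF4, the kinases and partner factors around it, and the amino acid enzymes, transporters and stress outputs that it is known to control. They were picked by name from the gene column of the deposited expression values, 34 genes among 35805 lines, and all 34 passed the filter on low values. CBS, which stands on a further line at a duplicated stretch of chromosome 21, was followed at its main locus, and the other line is given beside it. The 15 libraries came from HEK-293T, a human embryonic kidney line, with 3 libraries in each of 5 groups. Untransduced cells were the first group, and the other 12 libraries came from cells transduced with Cas9 and a guide. These guides were a pair of controls, sg1-Control and sg2-Control, and a pair against THAP1, sg1-THAP1 and sg2-THAP1. The 6 libraries of both control guides are called sgControl, and the 6 libraries of both THAP1 guides sgTHAP1. By the study's account THAP1 was disrupted in knock-in cells that report on the PSMB5 promoter through GFP and carry extra PSMB5, and GFP-dim cells were then sorted as a population rather than cloned. Which parental cells gave the untransduced libraries is not given in the sources used here. The transduction, Cas9, the control guide and any difference in parental cells separate sgControl from untransduced cells, and they cannot be told apart. Whether the control cells were sorted is not given in the sources used here. Between sgTHAP1 and sgControl, disruption of THAP1 and the sort for GFP-dim cells cannot be told apart.

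When amino acids run short or unfolded proteins build up, kinases phosphorylate the translation factor eIF2, which lowers protein synthesis in general but favours translation of the ATF4 mRNA. ATF4 then pairs with C/EBP and other leucine zipper factors on composite sites in its target genes, and these genes import amino acids, make serine, asparagine and cysteine, charge tRNAs and, under long stress, promote cell death. ATF4 is therefore controlled largely at translation, and its mRNA level is not a measure of its activity. In fast-growing lines such as HEK-293T many of these genes are expressed without added stress.

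Some members carry such a composite site close to a RefSeq start, and those stretches are shown because the members that hold them sit on both sides of the results below. The letters TGATGNAA, the core of the C/EBP-ATF response element, were searched on both strands in RefSeq promoter windows of GRCh38.p14 that run from 250 bases before to 50 bases after a start. Of the 29 members with a window, 9 held them, 31%, against 4.46% of 27305 genes. With only the part upstream of the start, 6 members and 3.89% of genes held them. TGACGTCA, the cAMP response element, was found in PPP1R15A alone among the members and in 2.25% of genes, and no member held both. A match is a description of the sequence and not a bound site, and the members were picked as known targets. The 7 upstream stretches are given 5′ to 3′ on the strand of the gene, with the match in capitals.

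ASNS, chr7:97872459-97872486, minus strand, in an exon of an ASNS transcript in GENCODE 44, match starting 68 bases before the RefSeq start: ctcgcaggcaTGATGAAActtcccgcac
CHAC1, chr15:40953252-40953279, plus strand, in an exon of a longer transcript, match on the opposite strand starting 209 bases before the start: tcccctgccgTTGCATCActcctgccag
CEBPG, chr19:33374061-33374088, plus strand, in an intron, match 42 bases before the start: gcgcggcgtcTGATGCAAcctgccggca
JDP2, chr14:75427996-75428021, plus strand, in an intron, match 16 bases before the start: tagccggggcTGATGCAAcccgtccc
ATF3, chr1:212565206-212565233, plus strand, outside any annotated gene, match 191 bases before the start: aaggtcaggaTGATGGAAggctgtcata
SLC1A5, chr19:46784894-46784921, minus strand, in an exon, match 97 bases before an inner start: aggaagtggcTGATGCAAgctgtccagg
PPP1R15A, chr19:48872353-48872380, plus strand, in an exon of a longer transcript, match 58 bases before the start: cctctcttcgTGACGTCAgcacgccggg

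As a check on the series, the recovered reads per library ran from 30400149 to 56638461, with 30400149 to 36548571 in untransduced cells, 31900201 to 56638461 in sgControl and 30645102 to 47754883 in sgTHAP1. THAP1 mRNA was 2.38 ± 0.11 log2 units higher in sgTHAP1 than in sgControl (SE). On the log2 scale it was at 5.48 to 6.18 in sgTHAP1, 3.25 to 3.57 in sgControl and 3.36 to 3.46 in untransduced cells. Its level thus set the sgTHAP1 libraries apart, but a rise cannot show that THAP1 was disrupted. PSMB5 mRNA, which can include the exogenous copy, fell by 0.49 log2 units. All 7 HEK-293T markers passed the filter on low values, with a summed level of 523 to 537 RPM, a gene's reads scaled to a common library total, in untransduced cells, 400 to 479 RPM in sgControl and 531 to 601 RPM in sgTHAP1. Between sgControl and untransduced cells 5 of them were lower, among them EYA1 at -1.06, PAX2 at -0.75 and NEFL at -0.64 log2 units, and INA was higher at 1.59. Between sgTHAP1 and sgControl 2 were lower and 1 higher. Of 3 fibroblast markers only COL1A1 passed the filter, at 22.7 to 27.2 RPM, 8.66 to 10.9 RPM and 3.75 to 5.7 RPM in the same order of groups, while COL1A2 had 0 to 3 reads and PDGFRB 0 to 5. Of 4 THP-1 markers 2 passed, with a summed level over the list of 0.293 to 0.572 RPM, 0.764 to 1.25 RPM and 0.61 to 1.21 RPM. CD14 among them, with 4 to 44 reads, passed through the transduced libraries, where it was higher. Its difference of 1.87 in sgControl against untransduced cells is therefore given without a p-value, and PTPRC had 0 to 3 reads. Of 3 A549 markers ALDH1A1 passed, with 0 to 24 reads and only through the untransduced libraries. It was at -0.93 to -0.61 log2 RPM there, and at most at -2.34 in sgControl and -2.94 in sgTHAP1. Its difference of -2.97 in sgControl against untransduced cells is therefore likewise given without a p-value. The summed level over the list was 0.584 to 0.709 RPM, 0.0796 to 0.354 RPM and 0.0845 to 0.177 RPM, and SFTPB had 0 to 2 reads. The part of these markers in the results below was not tested. The share of reads in listed genes was 90.8% to 91.0% in untransduced cells and 92.7% to 94.5% in transduced cells, and its part was likewise not tested.

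The largest difference among the members lay between untransduced and transduced cells. Between sgControl and untransduced cells, 25 of the 34 members were lower and 4 higher at an adjusted p under 0.05, against 40.5% lower and 28.1% higher among all 16787 tested genes. At an adjusted p under 0.001 and more than 2-fold, 20 members were lower and 2 higher, against 8.76% and 2.29% of all genes. The median log2 fold change of the members was -1.18, beside -0.12 over all tested genes. In 24 members every untransduced library lay above all 12 transduced libraries, which held for 32.6% of all tested genes, and in 2 members, ATF5 and PPP1R15A, every untransduced library lay below them, as in 18.9% of all genes.

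**Figure D1:**
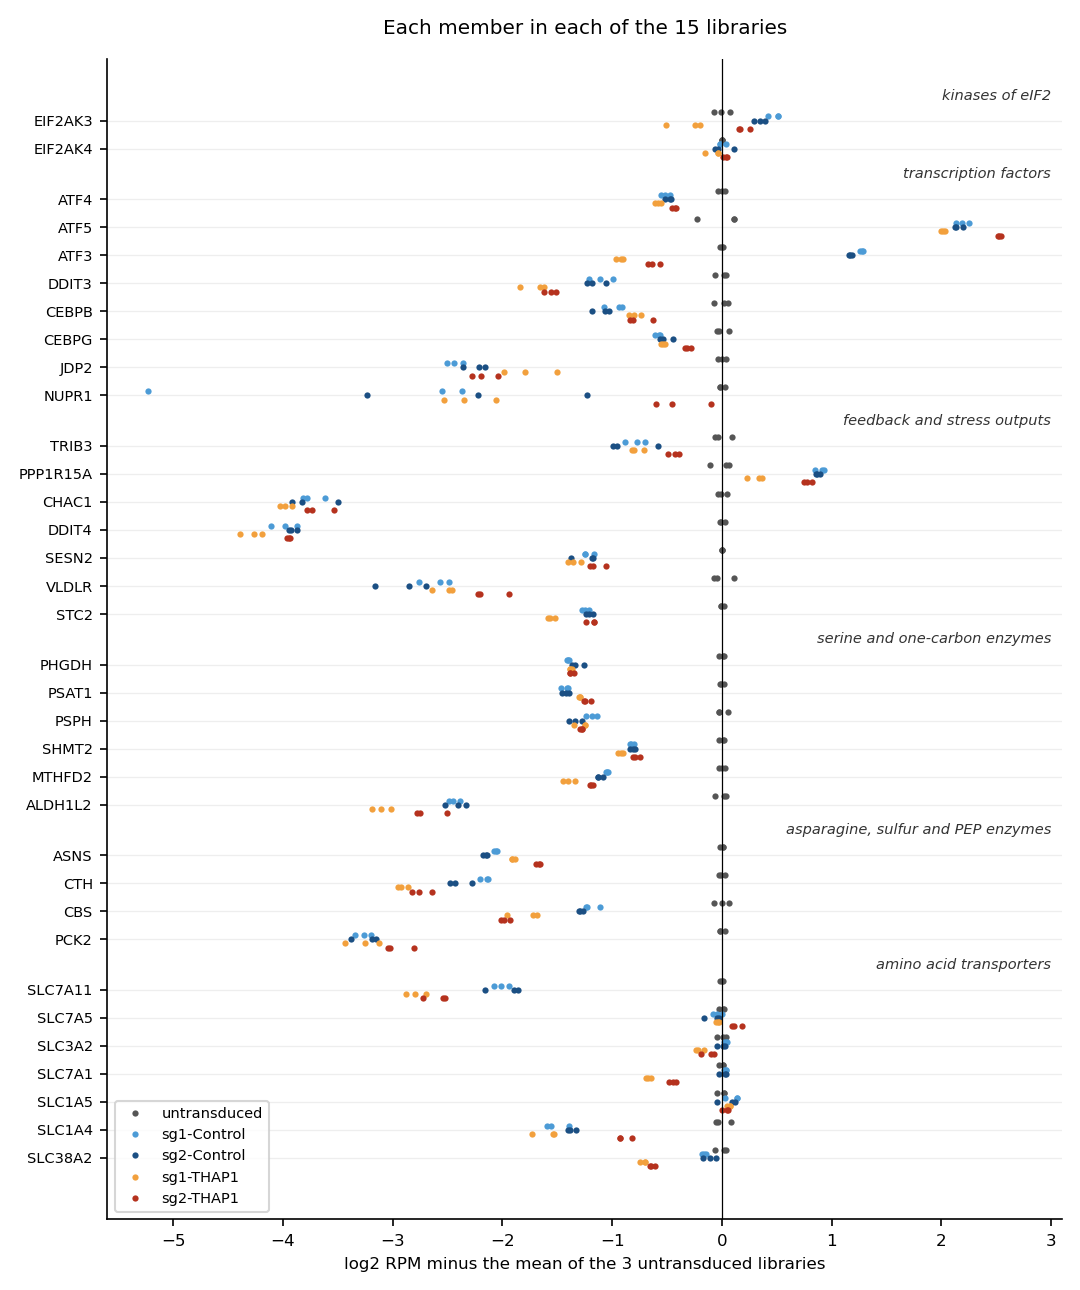
Each of the 34 members in each of the 15 libraries, as the log2 RPM difference from the average untransduced library (x axis), with genes grouped by role (y axis) and points coloured by group. Most transduced libraries lie left of 0, furthest for DDIT4, CHAC1 and a single sg1-Control library of NUPR1, while ATF5 and PPP1R15A lie right of it in all 12 and the transporters SLC7A5, SLC3A2 and SLC1A5 stay near 0.

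Between sgTHAP1 and sgControl the members were split. The call at an adjusted p under 0.05 was lower for 12, higher for 9 and neither for 13, against 32.6% lower and 20.2% higher among all genes, and the median was -0.03 beside -0.06 over all genes. Only ATF3 passed 2-fold at an adjusted p under 0.001, as a fall, where 1.83% of all genes fell and 0.346% rose by that rule. In 9 members all 6 sgTHAP1 libraries lay below the 9 others, against 12.9% of all genes, and in 0 members they lay above them, against 7.12%. With 1 mean per guide in place of its 3 libraries the counts were 7 lower and 1 higher, where 2326 of all 16787 tested genes were lower and 946 higher. EIF2AK3, CEBPB, CEBPG, JDP2, NUPR1, TRIB3, PPP1R15A, VLDLR, PSAT1, MTHFD2, ALDH1L2, SLC7A5 and SLC3A2 then lost their calls. The 9 members that lay below were ATF3, DDIT3, MTHFD2, CTH, CBS, SLC7A11, SLC3A2, SLC7A1 and SLC38A2.

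Both comparisons share the sgControl libraries, and sgTHAP1 against untransduced cells shares libraries with each. In this last comparison 27 members were lower and 2 higher, against 45.5% and 26.9% of all genes, and 18 and 1 passed 2-fold at an adjusted p under 0.001, against 13.4% and 2.52%. The median was -1.26, beside -0.20 over all genes. The values of all genes were shifted downwards in these comparisons, and another scaling moved that shift. With median centring the median over all genes was 0.05 for sgTHAP1 against sgControl and 0.03 for sgControl against untransduced cells. All genes then split into 3742 lower and 5363 higher for sgTHAP1 against sgControl, beside 5476 and 3390 as deposited, and with quantile normalization into 4249 and 4585. For sgControl against untransduced cells the splits were 6799 lower and 4724 higher as deposited, 5072 and 6353 with median centring, and 5314 and 5659 with quantile normalization. In that comparison 24 members were lower with median centring, where SLC38A2 turned, and 29 with quantile normalization, where SLC7A5, SLC3A2, SLC7A1 and SLC1A5 were called lower as well, and for sgTHAP1 against sgControl their higher calls rose from 9 to 17 with median centring. A lower value in a bulk library can stand for fewer cells with a transcript or for less of it per cell, and these cannot be told apart.

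Of the 2 kinases of eIF2 among the members, EIF2AK3 changed and EIF2AK4 did not pass the test. EIF2AK3 encodes PERK, the kinase that senses unfolded proteins in the endoplasmic reticulum. Its log2 RPM was 3.85, 3.70 and 3.77 in untransduced libraries, 4.06 to 4.29 with a median of 4.18 in sgControl, and 3.26 to 4.03 with a median of 3.75 in sgTHAP1. All 6 sgTHAP1 libraries lay below the 6 sgControl libraries, and the untransduced libraries lay within the range of sgTHAP1. The difference was -0.47 ± 0.10 (SE, adjusted p = 0.000482) between sgTHAP1 and sgControl, and 0.41 ± 0.12 (adjusted p = 0.00573) between sgControl and untransduced cells. With 1 mean per guide neither passed the test (adjusted p = 0.0777 and 0.127). EIF2AK4 encodes GCN2, the kinase that binds uncharged tRNAs when amino acids are scarce. It ranged only from 5.73 to 5.99 over the 15 libraries, and differed by -0.03 (adjusted p = 0.613) and 0.00 (adjusted p = 0.955) in the same comparisons.

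ATF4 mRNA was lower in every transduced library than in every untransduced library, by a modest amount. It stood at 9.92, 9.95 and 9.89 log2 RPM in untransduced cells, 9.45, 9.40 and 9.37 with sg1-Control and 9.45, 9.40 and 9.46 with sg2-Control. With sg1-THAP1 it stood at 9.31, 9.34 and 9.37, and with sg2-THAP1 at 9.50, 9.46 and 9.49. The sgControl libraries stood at 70.8% of untransduced cells, a log2 fold change of -0.50 ± 0.04 (adjusted p = 1.17e-09). Between sgTHAP1 and sgControl the difference was -0.01 ± 0.03 (adjusted p = 0.848), with sg1-THAP1 at or below and sg2-THAP1 at or above the control libraries, and with median centring it turned to 0.11.

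ATF3, an early stress factor of the ATF family that ATF4 also induces, went the other way between untransduced cells and sgControl. Its log2 RPM was 6.20, 6.23 and 6.22 in untransduced cells, 7.50, 7.47 and 7.50 with sg1-Control and 7.37, 7.40 and 7.38 with sg2-Control, and the groups did not overlap. It was 5.25, 5.29 and 5.31 with sg1-THAP1 and 5.54, 5.58 and 5.65 with sg2-THAP1, below all 9 others. The exact permutation test of sgTHAP1 against sgControl gave p = 0.00216, the smallest value that it can give. It shuffles single libraries and takes no account of the guide they share. The limma fit gave an adjusted p = 8.62e-16 for a level at 25.0% of sgControl.

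ATF5, a relative of ATF4 that is also controlled by translation, was the member with the largest rise in transduced cells. It stood at 3.32, 3.32 and 2.98 log2 RPM in untransduced cells and at 5.46, 5.34 and 5.39 with sg1-Control, and sg2-Control gave 5.41, 5.34 and 5.33. These 6 libraries were 4.50-fold above untransduced cells (adjusted p = 2.12e-12). With sg1-THAP1 it was 5.21, 5.25 and 5.22 and with sg2-THAP1 5.75, 5.74 and 5.73, so the THAP1 guides fell on opposite sides of sgControl, and the pooled difference of 0.10 ± 0.10 did not pass the test (adjusted p = 0.382).

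DDIT3 encodes CHOP, the factor that carries prolonged ATF4 signalling towards cell death. Its log2 RPM was 4.48, 4.50 and 4.40 in untransduced cells, 3.47, 3.35 and 3.25 with sg1-Control, 3.28, 3.23 and 3.41 with sg2-Control, 2.84, 2.80 and 2.62 with sg1-THAP1, and 2.94, 2.90 and 2.84 with sg2-THAP1. The 3 kinds of library formed separate steps with no overlap. DDIT3 in sgControl was at 45.8% of untransduced cells (adjusted p = 1.41e-10), and in sgTHAP1 at 70.4% of sgControl (adjusted p = 1.7e-06). The reads behind these values numbered 189 to 826 per library.

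CEBPB and CEBPG are C/EBP factors that pair with ATF4. CEBPB stood at 5.51, 5.38 and 5.47 log2 RPM in untransduced cells, at 4.55, 4.52 and 4.38 with sg1-Control and 4.27, 4.39 and 4.42 with sg2-Control, and rose by 0.25 ± 0.05 (adjusted p = 0.000361; 0.0886 with 1 mean per guide) to 4.60, 4.65 and 4.72 with sg1-THAP1 and 4.82, 4.62 and 4.64 with sg2-THAP1. All sgTHAP1 libraries thus lay between the control and the untransduced libraries. CEBPG ranged from 6.81 to 6.92 in untransduced cells and from 6.25 to 6.58 in the transduced ones. Its rise of 0.12 ± 0.05 in sgTHAP1 (adjusted p = 0.0348) was lost when any of 7 libraries was left out, sg1-Control replicates 1, 2 and 3, sg2-Control replicate 1 and each sg2-THAP1 library. The CEBPG rise was also lost with a correlation within guide, with 1 mean per guide and with sg1-THAP1 alone.

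JDP2 and NUPR1 completed the transcription factors. JDP2, a repressor of the AP-1 family, was at 4.0, 4.05 and 4.08 log2 RPM in untransduced cells and between 1.54 and 1.89 in sgControl with a median of 1.68, 19.8% of the untransduced level (adjusted p = 7.54e-12). In sgTHAP1 it ranged from 1.77 to 2.55 with a median of 2.03, a rise of 0.37 ± 0.11 over sgControl (adjusted p = 0.00794) that was lost with a correlation within guide, with 1 mean per guide and with sg2-THAP1 alone (adjusted p = 0.0756 to 0.194). NUPR1, a small stress-induced chromatin protein, was read 2 to 59 times per library. It was at 0.43, 0.39 and 0.39 in untransduced cells, -1.96, -4.82 and -2.15 with sg1-Control, -2.83, -0.83 and -1.82 with sg2-Control, -2.13, -1.65 and -1.95 with sg1-THAP1 and -0.19, -0.05 and 0.31 with sg2-THAP1. All 12 transduced libraries lay below the untransduced ones (adjusted p = 0.000886 for sgControl), and sg2-THAP1 above the other transduced ones. The pooled rise of 1.46 ± 0.54 in sgTHAP1 over sgControl (adjusted p = 0.0287) was lost, at adjusted p values of 0.0561 or more, when sg1-Control replicate 2, sg2-Control replicate 1 or any sg2-THAP1 library was left out. It was lost with sg1-THAP1 alone as well.

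**Figure D2:**
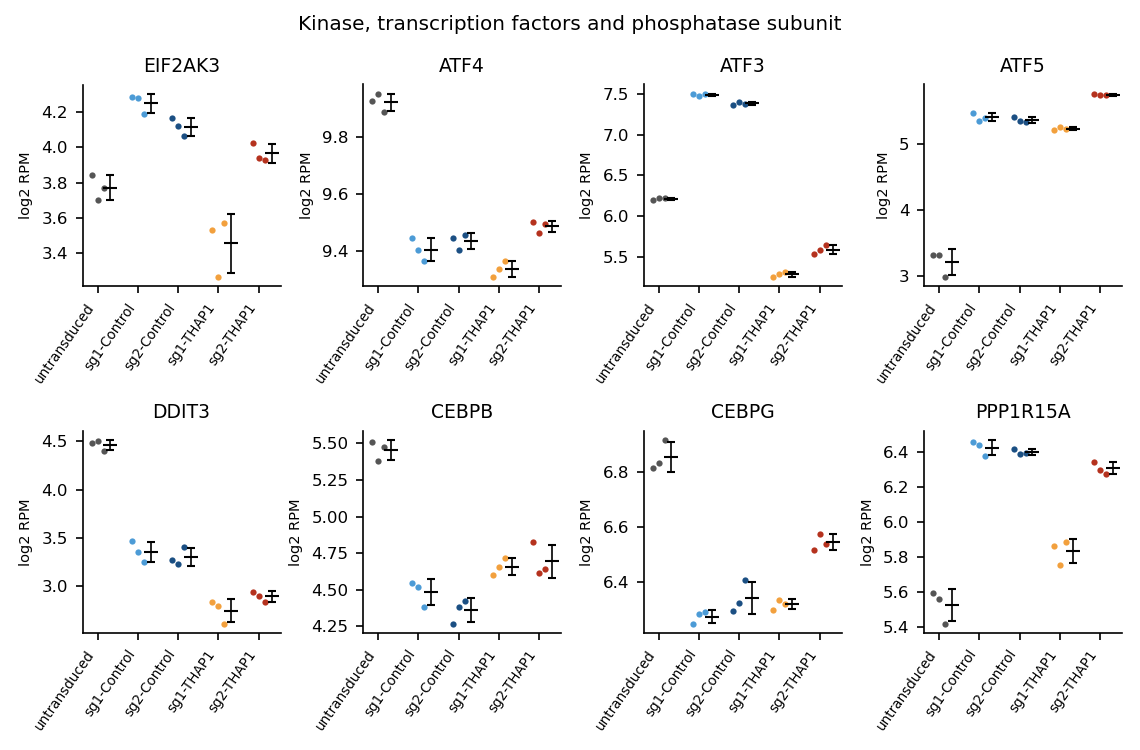
log2 RPM (y axes, each with its own range) of EIF2AK3, ATF4, ATF3, ATF5, DDIT3, CEBPB, CEBPG and PPP1R15A in the 5 groups (x axes), with 1 point per library and the mean with its SD (n = 3) beside the points. ATF3 is highest in the control guides and lowest in the THAP1 guides, DDIT3 falls in steps, and ATF5 lies above 5 in every transduced library and at 2.98 to 3.32 in untransduced ones.

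Of the 7 feedback genes and stress outputs, 6 were lower in sgControl than in untransduced cells and PPP1R15A rose. Among all tested genes 40.5% were lower and 28.1% higher in that comparison. DDIT4, also called REDD1, which restrains mTORC1, had the largest fall of all members. It was at 8.34, 8.30 and 8.29 log2 RPM in untransduced cells and between 4.20 and 4.43 in sgControl with a median of 4.37, 15.5-fold lower (adjusted p = 5.42e-18), and between 3.92 and 4.38 in sgTHAP1 with a median of 4.23. CHAC1, which degrades glutathione, was at 5.35, 5.30 and 5.26 in untransduced cells and between 1.39 and 1.81 in sgControl with a median of 1.5, 13.4-fold lower (adjusted p = 8.1e-16). In sgTHAP1 it ranged from 1.27 to 1.77 with a median of 1.46, and the groups overlapped. Against sgControl, the differences of DDIT4 and CHAC1 in sgTHAP1 were -0.16 (adjusted p = 0.0549) and -0.09 (adjusted p = 0.469). By guide, DDIT4 was at 3.92 to 4.11 with sg1-THAP1, below sgControl at an adjusted p under 0.05. With sg2-THAP1 it was at 4.35 to 4.38 and not called.

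VLDLR, the very low density lipoprotein receptor, fell 6.75-fold between untransduced cells, at 3.64, 3.48 and 3.45 log2 RPM, and sgControl, at 0.36 to 1.04 with a median of 0.79 (adjusted p = 8.15e-12). In sgTHAP1 it was at 0.89 to 1.58 with a median of 1.19, a rise of 0.43 ± 0.13 (adjusted p = 0.00961) that was lost with a correlation within guide, with 1 mean per guide, against sg1-Control alone and with sg1-THAP1 alone (adjusted p = 0.0928 to 0.174). SESN2, a leucine-sensing inhibitor of mTORC1, was at 7.36, 7.36 and 7.37 in untransduced cells, 5.99 to 6.19 in sgControl (median 6.15) and 5.96 to 6.31 in sgTHAP1 (median 6.12). STC2, a secreted glycoprotein, was at 7.44, 7.48 and 7.44, then 6.18 to 6.28 (median 6.23) and 5.87 to 6.30 (median 6.08). SESN2 and STC2 in sgControl were at 42.5% and 42.8% of the untransduced level (adjusted p = 6.51e-13 and 3.74e-11), and neither differed between pooled sgTHAP1 and sgControl by the test (adjusted p = 0.846 and 0.0656). By guide, STC2 was at 5.87 to 5.94 with sg1-THAP1, below sgControl at an adjusted p under 0.05. With sg2-THAP1 it was at 6.22 to 6.30 and not called.

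TRIB3, a pseudokinase that feeds back on ATF4 and CHOP, ranged from 4.81 to 4.97 log2 RPM in untransduced cells, 3.88 to 4.29 in sgControl and 4.06 to 4.48 in sgTHAP1. Its difference of -0.81 ± 0.10 in sgControl against untransduced cells (adjusted p = 4.98e-07) exceeded the spread. Its rise of 0.21 ± 0.08 in sgTHAP1 (adjusted p = 0.0397) was lost with a replicate block and without any of 7 libraries, sg1-Control replicates 1 and 3, sg2-Control replicates 2 and 3 and each sg2-THAP1 library. That rise was also lost with a correlation within guide, with 1 mean per guide and with sg1-THAP1 alone. PPP1R15A encodes GADD34, the phosphatase subunit that removes phosphate from eIF2 and so ends the response. It ranged from 5.42 to 5.59 in untransduced cells, 6.38 to 6.46 in sgControl and 5.75 to 6.34 in sgTHAP1. It was thus 0.89 ± 0.10 higher in sgControl than in untransduced cells (adjusted p = 1.56e-07) and fell by 0.34 ± 0.08 from sgControl to sgTHAP1 (adjusted p = 0.00154; 0.116 with 1 mean per guide), with no overlap among the 3 kinds of library.

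All 6 enzymes of serine synthesis and one-carbon metabolism were lower in sgControl than in untransduced cells, as were 40.5% of all tested genes. PHGDH, PSAT1 and PSPH make serine from a glycolytic intermediate in successive steps. PHGDH was at 9.15, 9.16 and 9.11 log2 RPM in untransduced cells and between 7.73 and 7.88 in all 12 transduced libraries, with a median of 7.76. PSAT1 was at 9.16, 9.19 and 9.16 in untransduced cells and 7.71 to 7.98 in the transduced ones, with a median of 7.83. PSPH was at 5.92, 5.92 and 6.0, and 4.55 to 4.81 with a median of 4.67. The enzymes in sgControl stood at 39.0%, 37.3% and 41.7% of the untransduced level (adjusted p = 1.5e-17, 7.44e-18 and 9.79e-14). Only PSAT1 among these 3 passed the test between sgTHAP1 and sgControl, with a rise of 0.16 ± 0.03 (adjusted p = 3.17e-05; 0.127 with 1 mean per guide), while PHGDH and PSPH differed by -0.01 and -0.02 (adjusted p = 0.692 and 0.742).

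The mitochondrial enzymes that pass on carbon from serine were lower in the same comparison. SHMT2, which splits serine into glycine and a one-carbon unit, ranged from 8.32 to 8.37 log2 RPM in untransduced cells and from 7.41 to 7.61 in transduced ones. MTHFD2, which oxidises that unit, was at 8.66, 8.68 and 8.71 in untransduced cells, 7.56 to 7.65 in sgControl (median 7.62) and 7.24 to 7.51 in sgTHAP1 (median 7.42). ALDH1L2, which oxidises formyl-tetrahydrofolate in mitochondria, was at 6.38, 6.46 and 6.47, then 3.92 to 4.11 (median 4.01) and 3.24 to 3.93 (median 3.54). MTHFD2 fell 2.12-fold and ALDH1L2 5.38-fold from untransduced cells to sgControl (adjusted p = 4.23e-13 and 9.4e-14). In sgTHAP1 both fell below sgControl, with log2 fold changes of -0.21 ± 0.04 and -0.46 ± 0.09 (adjusted p = 0.00028 and 0.000145), and ALDH1L2 in sg2-THAP1 overlapped sgControl. With 1 mean per guide neither passed the test (adjusted p = 0.114 and 0.0534).

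ASNS, PCK2, CTH and CBS were all more than 2-fold lower in sgControl than in untransduced cells at an adjusted p under 0.001, as were 8.76% of all tested genes. They went apart in sgTHAP1 against sgControl, where 32.6% of all genes were lower and 20.2% higher at an adjusted p under 0.05. ASNS, which makes asparagine, was at 8.97, 9.0 and 8.99 log2 RPM in untransduced cells, 6.93, 6.91 and 6.94 with sg1-Control, 6.84, 6.81 and 6.85 with sg2-Control, 7.08, 7.10 and 7.08 with sg1-THAP1 and 7.29, 7.33 and 7.32 with sg2-THAP1. It fell 4.31-fold (adjusted p = 5.95e-17) and then rose by 0.32 ± 0.05 in sgTHAP1 over sgControl (adjusted p = 5.53e-06), where all 6 libraries lay above all 6. PCK2, the mitochondrial enzyme that makes phosphoenolpyruvate, was at 6.91, 6.86 and 6.87 in untransduced cells, 3.50 to 3.73 in sgControl (median 3.65) and 3.45 to 4.08 in sgTHAP1 (median 3.80). Its fall was 9.53-fold (adjusted p = 2.39e-16), and between sgTHAP1 and sgControl it differed by 0.14 (adjusted p = 0.139).

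CBS and CTH convert homocysteine to cysteine in successive steps. CTH was at 6.51, 6.56 and 6.53 log2 RPM in untransduced cells, 4.39, 4.33 and 4.40 with sg1-Control, 4.25, 4.1 and 4.05 with sg2-Control, 3.61, 3.58 and 3.68 with sg1-THAP1 and 3.77, 3.89 and 3.71 with sg2-THAP1. CBS was at 6.51, 6.38 and 6.45, then 5.33, 5.22 and 5.21, then 5.15, 5.18 and 5.15, then 4.73, 4.76 and 4.49, and then 4.43, 4.46 and 4.52 in the same order of groups. Both formed 3 separate steps, untransduced, sgControl and sgTHAP1. CTH fell 4.85-fold and CBS 2.36-fold to sgControl (adjusted p = 3.35e-15 and 3.78e-12), and in sgTHAP1 they stood at 68.4% and 64.0% of sgControl (adjusted p = 5.52e-07 and 9.55e-09). The other CBS line, whose reads may have been split with the first, gave -1.32 and -0.75 in these comparisons.

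The 7 transporters divided into a pair that fell in transduced cells and 5 that stayed near the untransduced level in sgControl. SLC7A11, the subunit of the cystine and glutamate exchanger that carries the substrate, was at 6.95, 6.94 and 6.96 log2 RPM in untransduced cells, 4.88, 4.94 and 5.01 with sg1-Control and 4.79, 5.09 and 5.05 with sg2-Control, 3.97-fold lower (adjusted p = 9.17e-15). It was at 4.15, 4.25 and 4.07 with sg1-THAP1 and 4.22, 4.43 and 4.40 with sg2-THAP1, a further difference of -0.70 ± 0.06 (adjusted p = 7.95e-09), and an antisense gene overlaps its locus. SLC1A4, which exchanges serine, alanine and other neutral amino acids, was at 4.68, 4.54 and 4.56 in untransduced cells, 3.04, 2.99 and 3.20 with sg1-Control, 3.21, 3.27 and 3.19 with sg2-Control, 3.05, 2.86 and 3.06 with sg1-THAP1 and 3.66, 3.77 and 3.67 with sg2-THAP1. It was at 36.8% of the untransduced level in sgControl (adjusted p = 7.73e-08), and its difference of 0.20 ± 0.13 between sgTHAP1 and sgControl did not pass the test (adjusted p = 0.209).

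SLC7A5, SLC3A2, SLC7A1, SLC1A5 and SLC38A2 are abundant carriers of leucine (SLC7A5 with its partner chain SLC3A2), arginine and lysine, glutamine, and small neutral amino acids. Between sgControl and untransduced cells they differed by only -0.06, 0.02, 0.02, 0.08 and -0.14, and only SLC38A2 passed the test (adjusted p = 0.0035; 0.224 with 1 mean per guide). Those signs depend on the scaling. With median centring SLC7A5 and SLC38A2 turned to 0.10 and 0.02, and with quantile normalization SLC3A2, SLC7A1 and SLC1A5 turned to -0.19, -0.19 and -0.10.

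In sgTHAP1, however, SLC7A1 and SLC38A2 were clearly lower. SLC7A1 was at 7.87, 7.87 and 7.83 log2 RPM in untransduced cells and at 7.83 to 7.90 in sgControl, and at 7.17, 7.19 and 7.22 with sg1-THAP1 and 7.44, 7.41 and 7.38 with sg2-THAP1. SLC38A2 was at 7.93, 8.02 and 8.01 in untransduced cells, 7.81 to 7.94 in sgControl, 7.29, 7.24 and 7.28 with sg1-THAP1 and 7.34, 7.34 and 7.37 with sg2-THAP1. They stood at 67.0% and 68.8% of sgControl (adjusted p = 6.82e-10 and 2e-11), with all 6 libraries below the 9 others for both. SLC3A2 fell by 0.18 ± 0.03 (adjusted p = 6.21e-05), from 7.85 to 7.94 in sgControl to 7.65 to 7.82 in sgTHAP1, a fall that did not pass the test with median centring or with 1 mean per guide (adjusted p = 0.0713 and 0.103). SLC7A5 was 0.10 ± 0.04 higher (adjusted p = 0.0289), a call lost without sg1-Control replicate 1, sg2-Control replicate 3 or any sg2-THAP1 library. That call was also lost with a correlation within guide, with 1 mean per guide and with sg1-THAP1 alone. SLC1A5 differed by -0.03 (adjusted p = 0.48).

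**Figure D3:**
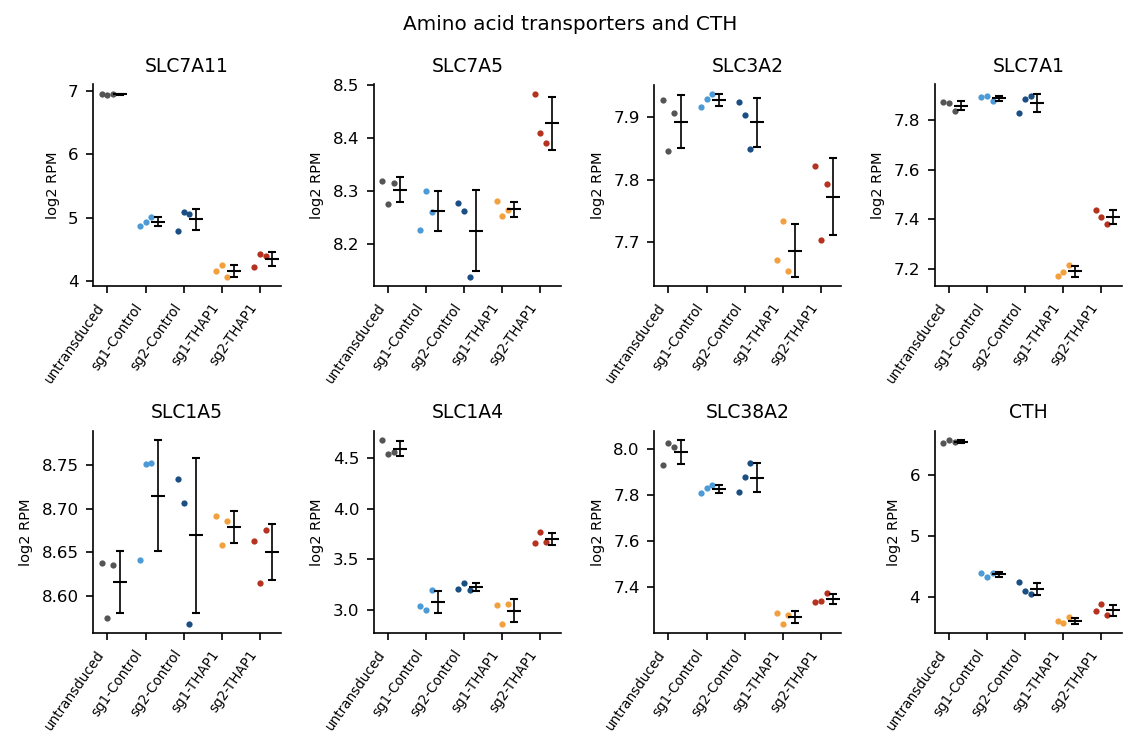
log2 RPM (y axes, each with its own range) of the 7 transporters and of CTH in the 5 groups (x axes), with 1 point per library and the mean with its SD (n = 3) beside the points. SLC7A11 and CTH fall from untransduced to sgControl and again to sgTHAP1, SLC7A1 and SLC38A2 lie below the 9 other libraries in both THAP1 guides, and SLC1A4 is higher with sg2-THAP1 than with sg1-THAP1.

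The members also differed between the THAP1 guides. In sg1-THAP1 against sg2-THAP1, 25 members were lower and 2, JDP2 and CBS, higher, against 28.3% and 11.7% of all genes, with a median of -0.21 beside -0.08 over all genes. With median centring 15 were lower and 4 higher, where 2673 of all 16787 tested genes were lower and 3737 higher. Between the control guides 0 members were lower and 2, ASNS and CTH, higher, against 1.82% and 2.06% of all genes. Against sgControl, which both comparisons share, sg1-THAP1 gave 18 lower and 4 higher members, where 39.3% and 20.1% of all genes were called, and sg2-THAP1 gave 12 lower and 13 higher, where 30.6% and 25.6% were called.

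The guides lay furthest apart for NUPR1, where sg1-THAP1 minus sg2-THAP1 was -1.93 ± 0.53 log2 units (adjusted p = 0.00304), and for SLC1A4, at -0.71 ± 0.08 (adjusted p = 2.62e-09). ATF5, EIF2AK3, PPP1R15A, ALDH1L2 and VLDLR followed among those lower with sg1-THAP1, at -0.52, -0.51, -0.47, -0.43 and -0.40, and the VLDLR call (adjusted p = 0.0488) was lost in 16 alternatives. SLC1A4 with sg1-THAP1 was at -0.16 (adjusted p = 0.0542) and with sg2-THAP1 at 0.55 (adjusted p = 9.94e-09) against sgControl. ATF4, ATF5 and SESN2 were lower with sg1-THAP1, at -0.08, -0.15 and -0.12, and higher with sg2-THAP1, at 0.07, 0.36 and 0.09, all at an adjusted p of at most 0.0419. The median over all tested genes against sgControl was -0.10 with sg1-THAP1 and -0.03 with sg2-THAP1. With median centring the differences between the guides no longer passed the test for ATF4 and SESN2 (adjusted p = 0.111 and 0.0555). PHGDH and PSPH differed by -0.00 between the guides (adjusted p = 0.941 and 0.972), CEBPB by -0.04 (adjusted p = 0.675) and SLC1A5 by 0.03 (adjusted p = 0.51).

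**Figure D4:**
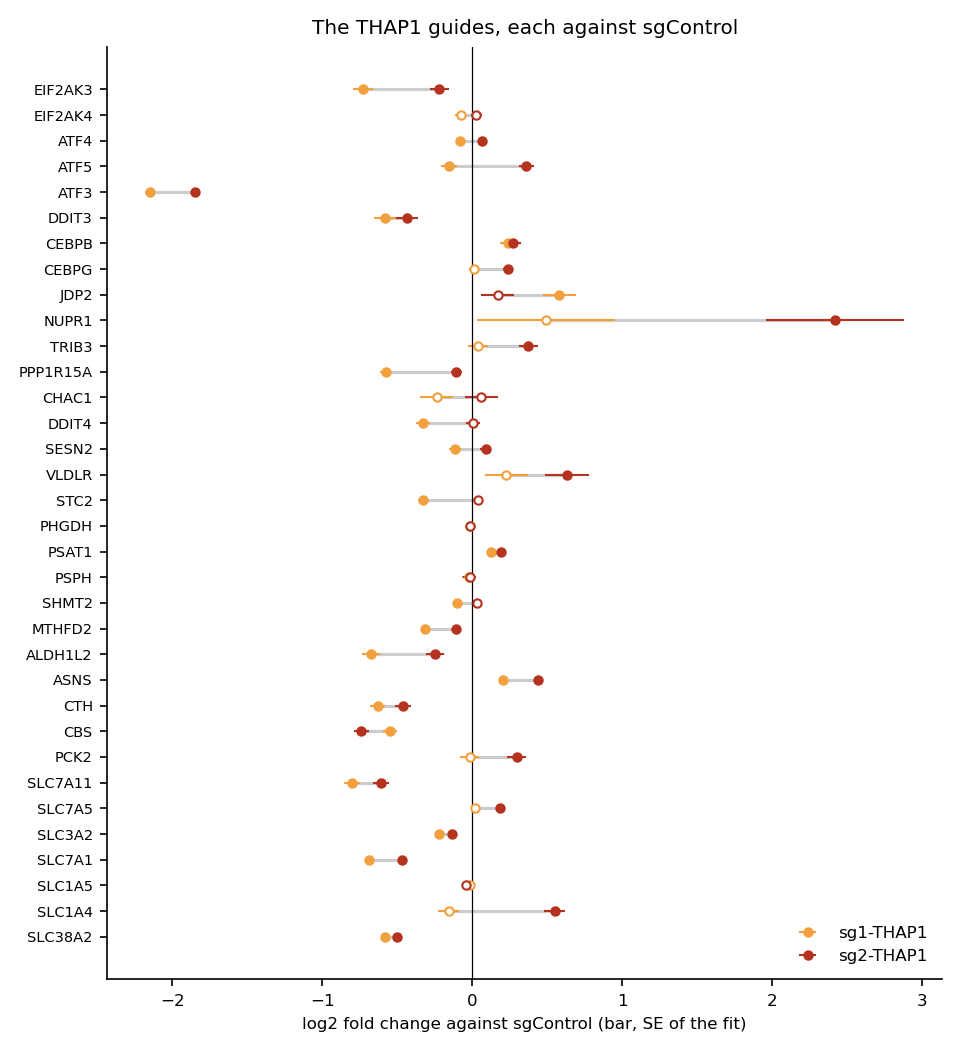
log2 fold change (x axis) of each member (y axis) in sg1-THAP1 and in sg2-THAP1, each against the 6 sgControl libraries, with bars for the SE of the fit (n = 3 against 6) and filled points at an adjusted p under 0.05. ATF3 is at -2.15 and -1.85, SLC7A1 is at -0.69 and -0.47, and NUPR1 and SLC1A4 show the widest gaps.

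Other genes of the pathway were taken as 4 lists. Of all tested genes, 40.5% were lower and 28.1% higher in sgControl against untransduced cells, and 32.6% and 20.2% in sgTHAP1 against sgControl. Past 2-fold at an adjusted p under 0.001, the shares in sgControl against untransduced cells were 8.76% and 2.29%. Of 20 other ATF4-responsive genes, 15 were lower and 3 higher in sgControl against untransduced cells, with a median of -0.87, and 5 were lower and 3 higher in sgTHAP1 than in sgControl, with a median of -0.08. Among them KLHL24, BBC3 (a cell death protein of the BCL2 family) and MAP1LC3B (an autophagy protein) stood at -0.79 ± 0.05, -0.52 ± 0.08 and -0.31 ± 0.04 log2 units in sgTHAP1 against sgControl (adjusted p = 8.12e-11, 2.82e-05 and 3.31e-07), and GOT1, which makes aspartate, was 0.25 ± 0.04 higher (adjusted p = 2.5e-05). Of 20 cytosolic aminoacyl-tRNA synthetases, which charge tRNAs with amino acids, 12 were lower and 7 higher in sgControl against untransduced cells, with a median of -0.49. AARS and CARS, named after their values were seen, were the 2 past 2-fold, at -1.52 and -1.08. In sgTHAP1 against sgControl 9 were lower and 4 higher, led by IARS at -0.40 ± 0.05, SARS at 0.19 ± 0.03, TARS at -0.28 ± 0.04 and QARS at -0.14 ± 0.03 (adjusted p = 4.24e-07, 5.87e-06, 7.51e-06 and 0.000388).

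The remaining lists cover the eIF2 machinery and the other branches of the unfolded protein response. The shares of all tested genes were 40.5% lower and 28.1% higher for sgControl against untransduced cells, and 32.6% and 20.2% for sgTHAP1 against sgControl. Of 17 genes of the eIF2 pathway, 7 were lower and 10 higher in sgControl against untransduced cells, with a median of 0.25, and 0 passed 2-fold. In sgTHAP1 against sgControl 8 were lower and 6 higher, with QRICH1 at -0.34 ± 0.03, PPP1R15B, the constitutive partner of PPP1R15A, at -0.56 ± 0.05, EIF2S3, a subunit of eIF2, at -0.25 ± 0.03 and EIF2B3, a subunit of its exchange factor, at 0.24 ± 0.04 (adjusted p = 1.59e-08, 4.16e-08, 9.01e-08 and 1.34e-05). Of 12 targets of ATF6 and XBP1, 2 were lower and 8 higher in sgControl against untransduced cells, with a median of 0.27, and 9 were lower and 0 higher in sgTHAP1 than in sgControl, with a median of -0.24. HERPUD1, EDEM1, DNAJB9 and HSPA5, genes of protein folding and degradation in the endoplasmic reticulum, stood at -0.77 ± 0.05, -0.46 ± 0.04, -0.96 ± 0.08 and -0.36 ± 0.04 log2 units (adjusted p = 1.28e-10, 4.97e-09, 7.14e-09 and 3.28e-07).

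Averaged over the genes of a list, each library's distance from the untransduced mean shows how the groups line up. Over all 34 members the distance was -1.08 to -1.19 log2 units in sgControl, -1.35 to -1.38 with sg1-THAP1 and -1.10 to -1.12 with sg2-THAP1. By this mean sg2-THAP1 lay among the control libraries and sg1-THAP1 below them. With the median over the members instead, sg2-THAP1, at -0.99 to -1.05, lay above sgControl, at -1.08 to -1.19, and sg1-THAP1, at -1.29 to -1.34, still below it. For the transporters it was -0.46 to -0.54 in sgControl, -0.84 to -0.86 with sg1-THAP1 and -0.64 to -0.65 with sg2-THAP1, all below the controls. For the feedback genes and outputs sg2-THAP1, at -1.65 to -1.70, lay above sgControl, at -1.77 to -1.91, and sg1-THAP1, at -2.02 to -2.03, below it. With the median over these genes sg2-THAP1, at -1.17 to -1.24, overlapped sgControl, at -1.21 to -1.37.

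**Figure D5:**
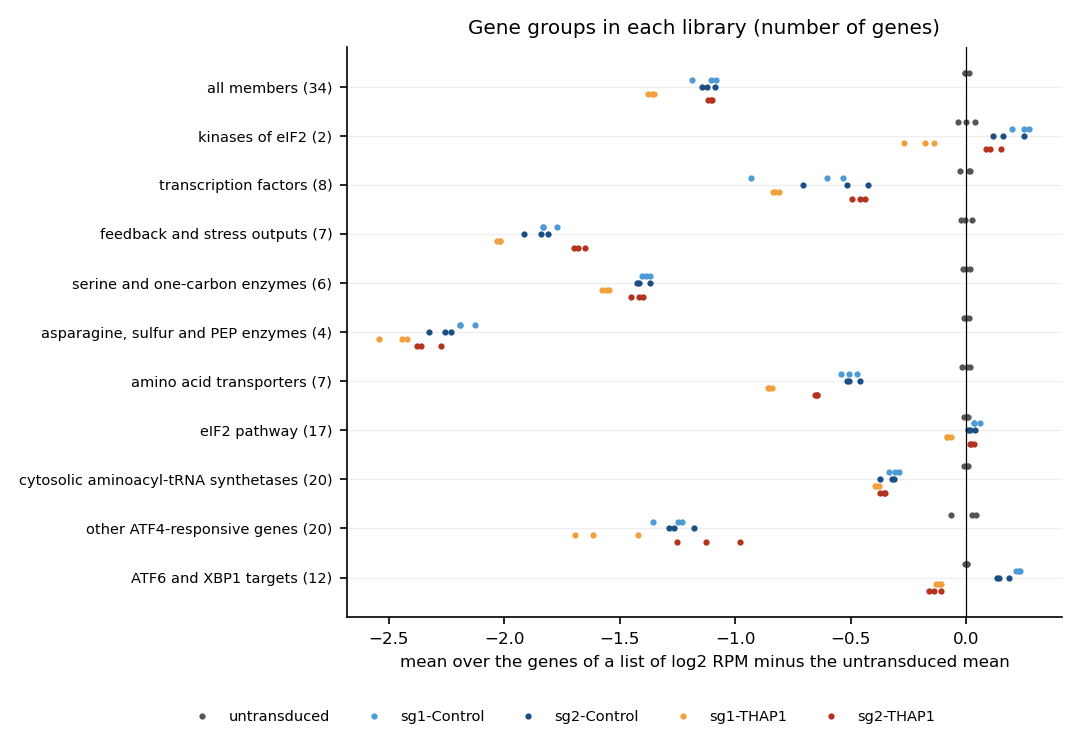
Difference in log2 RPM from the untransduced mean, averaged over the genes of each list (x axis), for all members, for each role and for the 4 further lists (y axis, with the number of genes), with 1 point per library coloured by group. The members and the other ATF4-responsive genes lie near or below -1 in all transduced libraries, while the eIF2 pathway and the targets of ATF6 and XBP1 stay between -0.16 and 0.23.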

How the data were processed

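Polyadenylated RNA from HEK-293T cells was sequenced with strand-specific libraries. The authors trimmed reads with Cutadapt, aligned them to GRCh38 with HISAT2 and deposited log2 RPM values per gene (RPM, reads of a gene scaled by the library's total) from SeqMonk, in which a gene with 0 reads stands at 0.9 read. How reads were assigned by strand, and how those matching several places were treated, is not given in the sources used here; ATF4, PSAT1 and PSPH have copies elsewhere in the genome. The deposited group means and fold changes were not used. The steps between low values gave whole reads, within 0.01 read, for 99.8% of values, so library totals could be recovered and a count-based model could be run on them.

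A gene was tested where 3 or more libraries had a log2 value of -2 or higher (16787 of 35805 lines). Groups were compared on the deposited log2 scale with limma 3.58.1 in R 4.3.3 (trended empirical Bayes), with 1 coefficient each for untransduced, sgControl and sgTHAP1, or 1 per guide group for comparisons between guides, and adjusted by Benjamini-Hochberg over all tested genes. Errors are SE of the fit. The study describes the libraries as biological triplicates; whether those of one guide came from separate transductions is not given in the sources used here, so p-values measure the spread between these libraries. Alternatives were other scalings, filters, pseudocount (0.5 RPM), weights, controls and guides, a replicate block, guide means, voom on the recovered reads and leaving out each library. The pooled fit of sgTHAP1 against sgControl was also run on simulated reads. Those libraries were independent, so the run cannot show how the fit does where libraries share a guide.

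The members, and the lists beside them, were chosen with earlier results of these data known. All 34 members were named. Library values were given for ATF4, DDIT3, ATF3, ATF5, CEBPB and members past 1.5-fold at an adjusted p under 0.05 in sgTHAP1 against sgControl or between the THAP1 guides, or past 2-fold at an adjusted p under 0.001 in sgControl against untransduced cells, with 6 or 12 libraries given by range where they lay together. From each further list the 4 genes with the smallest adjusted p in sgTHAP1 against sgControl were named. RefSeq promoter windows matched 29 members.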

Additional observations from a re-analysis of the deposited data

Results flagged for a closer look

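The difference between sg1-THAP1 and sg2-THAP1 passed the test for 27 of the 34 members, and between sg1-Control and sg2-Control for 2. Among all tested genes 28.3% were lower and 11.7% higher between the THAP1 guides, and 1.82% and 2.06% between the control guides. As sg1-THAP1 minus sg2-THAP1 on the log2 scale, the regulators EIF2AK3, EIF2AK4, ATF4, ATF5, ATF3, CEBPG, JDP2 and NUPR1 stood at -0.512, -0.104, -0.149, -0.515, -0.304, -0.226, 0.412 and -1.93. The EIF2AK4 call was lost in 15 alternatives, among them quantile normalization, median centring and voom, at adjusted p values of 0.0509 to 0.95 over the 15. The feedback genes and outputs TRIB3, PPP1R15A, DDIT4, SESN2, VLDLR and STC2 stood at -0.336, -0.472, -0.335, -0.204, -0.404 and -0.369. The enzymes SHMT2, MTHFD2, ALDH1L2, ASNS, CTH, CBS and PCK2 stood at -0.136, -0.208, -0.430, -0.229, -0.168, 0.190 and -0.315, and the transporters SLC7A11, SLC7A5, SLC3A2, SLC7A1, SLC1A4 and SLC38A2 at -0.194, -0.163, -0.0866, -0.219, -0.707 and -0.0785. The guide and the cells sorted for it cannot be told apart.

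A single library stood apart within its group, sg2-Control replicate 1 for SLC7A1, the lowest of the 6 sgControl libraries, with a gap to the next of 0.693 of the range. It was 1 of 68 such tests, and chance flags about 1 in 20.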

How the results depend on the processing

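The falls in sgControl against untransduced cells changed little, with 25 members lower by count whichever library was left out, 24 with median centring and 29 with quantile normalization; the 4 higher calls became 4 to 5 without single libraries, 9 with median centring and 2 past 2-fold at an adjusted p under 0.001. For sgTHAP1 against sgControl, 12 lower calls became 12 to 14 without single libraries, 7 with guide means and 1 past 2-fold. The 9 higher calls became 5 to 10 without single libraries (5 without any sg2-THAP1 replicate, where CEBPG, NUPR1, TRIB3 and SLC7A5 were lost), 5 with no filter, 17 with median centring, 3 with a correlation within guide, 1 with guide means, 4 with sg1-THAP1 alone and 0 past 2-fold. For sgTHAP1 against untransduced cells 27 lower calls became 27 to 28 without single libraries, 26 with median centring (SLC3A2 turned) or guide means (SLC3A2 lost) and 29 with quantile normalization or sg1-THAP1 alone, and 2 higher ones became 2 to 2 without single libraries, 6 with median centring, 4 with sg2-THAP1 alone and 1 past 2-fold. Between the THAP1 guides 25 lower calls became 20 to 27, 15 with median centring and 0 past 2-fold, and 2 higher ones became 1 to 2, 4 and 0. Between the control guides 0 lower calls became 0 to 1, and 2 higher ones 0 to 2, 1 with no filter, with quantile normalization or with median centring, 0 past 2-fold and 3 with voom. Signs turned with median centring for sgTHAP1 against sgControl in EIF2AK4 (0.089), ATF4 (0.11), SESN2 (0.10), PHGDH (0.10) and SHMT2 (0.080), with sg2-THAP1 alone in ATF4 (0.066) and SESN2 (0.089), and with sg1-THAP1 alone in ATF5 (-0.15). For sgControl against untransduced cells they turned with median centring in SLC7A5 (0.10) and SLC38A2 (0.021) and with quantile normalization in SLC3A2 (-0.19), SLC7A1 (-0.19) and SLC1A5 (-0.10). For sgTHAP1 against untransduced cells they turned in EIF2AK3 with quantile normalization (0.28) and sg2-THAP1 alone (0.19), in EIF2AK4 (0.25) and SLC3A2 (0.11) with median centring, and in SLC7A5 (-0.12) and SLC1A5 (-0.10) with quantile normalization. Between the THAP1 guides they turned with median centring in PHGDH (0.10), SLC3A2 (0.013) and SLC38A2 (0.021). The cause was not tested. All genes split for sgTHAP1 against untransduced cells into 7642 lower and 4515 higher as deposited, 5258 and 6966 with median centring and 5524 and 6065 with quantile normalization, and between the THAP1 guides into 4744 and 1963, 2673 and 3737, and 2962 and 3014; voom called 5464 and 3465 for sgTHAP1 against sgControl. With guide means all genes gave 2326 and 946 calls for sgTHAP1 against sgControl, and with a correlation within guide (0.43) 3829 and 2188. Same-numbered replicates did not deviate together (30 pairs, correlations -0.132 to 0.0441), and a replicate block gave 12 lower and 8 higher for sgTHAP1 against sgControl (TRIB3 lost), 25 and 4 for sgControl and 27 and 2 for sgTHAP1 against untransduced cells, 24 and 2 between the THAP1 guides (VLDLR lost) and 0 and 2 between the control guides. The upstream window alone left 6 of 9 members with the composite motif. Depth limits NUPR1 most, with 2 reads in its lowest library.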
